A study of Mus musculus with 6 samples.

Results

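AMPA and NMDA receptors are the glutamate-gated ion channels that carry most fast excitation between neurons of the hippocampus. Expression of 10 genes for their pore-forming subunits was compared between wildtype and miR-17-92 knockout mice. The 4 AMPA receptor genes were Gria1, Gria2, Gria3 and Gria4, and the 6 NMDA receptor genes were Grin1, Grin2a, Grin2b, Grin2c, Grin2d and Grin3a. They were taken by symbol from the 37620 gene identifiers counted in each library, and all 10 passed the filter on low counts. Grin3b, a further NMDA receptor gene, is not among them. It held 5 to 10 reads per library and was not tested.

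RNA was sequenced from the whole hippocampus of 3 wildtype mice (group wildtype) and 3 mice lacking the microRNA cluster (group miR17-92 knockout). All were C57BL/6 mice aged 13 weeks, and no litter contributed more than 1 animal. The labels do not give the allele, any Cre driver or the cells in which the cluster was lost. Nothing but genotype is said to differ between the groups, so knockout was compared with wildtype, in a series on adult hippocampal neurogenesis, anxiety and depression.

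Each AMPA receptor is a tetramer of GluA1 to GluA4 subunits, the products of Gria1 to Gria4. GluA2 is edited at the RNA level, and receptors that hold the edited subunit pass little calcium. NMDA receptors combine obligatory GluN1 subunits, from Grin1, with GluN2 or GluN3 subunits. Receptors of GluN1 and GluN2 open only when glutamate and a co-agonist are bound and the membrane is depolarised. The calcium they admit starts synaptic plasticity. GluN2B prevails in the young forebrain, and GluN2A joins it as circuits mature.

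The cluster's microRNAs pair through a seed, bases 2 to 8 of the mature strand, with matching letters in the 3' untranslated region (UTR) of messenger RNAs. The guide strands are shown with the seed in capitals because they define which letters were searched for in the subunit genes. Their sequences are from RefSeq on GRCm38.p6, where all 6 lie on the plus strand of chromosome 14, miR-17-5p at chr14:115043684-115043706 and miR-92a-3p at chr14:115044476-115044496.
miR-17-5p: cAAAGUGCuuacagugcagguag
miR-20a-5p: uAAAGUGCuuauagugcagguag
miR-18a-5p: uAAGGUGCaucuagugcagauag
miR-19a-3p: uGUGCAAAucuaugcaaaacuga
miR-19b-3p: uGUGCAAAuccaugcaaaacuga
miR-92a-3p: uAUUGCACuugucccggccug
miR-17-5p and miR-20a-5p share a seed, as do miR-19a-3p and miR-19b-3p, so 4 seeds were searched.

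On the transcript strand, GCACTTT was searched for miR-17-5p and miR-20a-5p, GCACCTT for miR-18a-5p, TTTGCAC for the miR-19 pair and GTGCAAT for miR-92a-3p. None of these motifs contains another. At least 1 of them stood in the longest annotated 3' UTR of 5 of the 10 subunit genes, Gria2, Gria3, Grin1, Grin2a and Grin2b. Among 14518 tested genes with a 3' UTR, 33.3% held one. The median 3' UTR was 2431 bases long in the subunit genes and 1192 in all these genes. Of the 3340 genes with a 3' UTR of at least the subunits' median, 66.3% held a match. Among the subunit genes that long, Gria2, Grin2a and Grin2b held a match, and Gria1 and Grin3a did not. Matches per kilobase came to 0.264 in the subunit genes and 0.303 in all genes. Grin2a, with a 3' UTR of 9929 bases, held 6 matches and was the only subunit gene with all 4 seeds. Of these, 5 are shown with 11 bases on either side and the match in capitals, since Grin2a had the smallest p of the 10 genes. They are exonic, in the 3' UTR of Grin2a on the minus strand of chromosome 16 (GENCODE M21, GRCm38).
Grin2a, miR-18a-5p, chr16:9576543-9576571: ctctgaaatgtGCACCTTcttggaggtgc
Grin2a, miR-92a-3p, chr16:9573041-9573069: gggagaagagtGTGCAATatatgctgctt
Grin2a, miR-17-5p and miR-20a-5p, chr16:9571614-9571642: gagtaggaaatGCACTTTgtaatgtccca
Grin2a, miR-17-5p and miR-20a-5p, chr16:9570431-9570459: atgcttccataGCACTTTataggagcaga
Grin2a, miR-19a-3p and miR-19b-3p, chr16:9570045-9570073: ctagtagagtgTTTGCACagcacacgtgt

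Gria2, with a 3' UTR of 7268 bases, held 2 matches. They are shown because Gria2 was the subunit gene whose knockout libraries all lay above the wildtype ones. Both are in its 3' UTR on the minus strand of chromosome 3.
Gria2, miR-17-5p and miR-20a-5p, chr3:80687220-80687248: aagtagaaggaGCACTTTaatttgtgtaa
Gria2, miR-92a-3p, chr3:80684796-80684824: tctgaaagaaaGTGCAATtaggtcaaatg
Grin2b held 3 matches in 18865 bases, and Gria3 and Grin1 held 1 each. No match was found in Gria1, Gria4, Grin2c, Grin2d or Grin3a. A match of letters is a description and was not tested as a binding site.

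Libraries held between 26439693 and 57246827 reads assigned to genes, and levels are given as CPM, a gene's reads scaled to a common library total after TMM normalisation. The host transcript Mir17hg held 30 to 47 reads per library in both genotypes (log2 fold -0.22, SE 0.28), which does not check the labels. In the lists for pyramidal cells, granule cells, interneurons and glia, at most 1 marker averaged under 1 CPM, whereas 4 of 6 choroid plexus markers did. Choroid plexus markers summed to 65.3 CPM in wildtype replicate 1 and to between 25.4 and 39.4 CPM in the other libraries. Ttr measured 39.0 CPM in wildtype replicate 1 and between 1.56 and 5.73 CPM in the others. That library was also the highest for Grin2a and Grin2b, and a link was not tested. Of 12 marker lists, the summed level of 2 separated the genotypes. For comparison, DESeq2 called 70 genes higher and 93 lower among the 12919 it adjusted. Of all genes tested with edgeR, 49.99% had a negative fold. Dentate granule cell markers summed to between 944 and 1022 CPM in wildtype and between 1103 and 1134 CPM in knockout. Of the 12, 10 had a positive fold. DESeq2 called 2 higher, Calb1 (log2 fold 0.46, adjusted p = 0.0624 with edgeR and 2.8e-09 with DESeq2) and Pter (log2 fold 0.40, adjusted p = 0.0667 with edgeR and 1.3e-07 with DESeq2). With edgeR, 2 were higher and 1 lower at an unadjusted p under 0.05, against 5.05% and 5.58% of all genes. Calb1 lay between 118 and 136 CPM in wildtype and between 168 and 180 CPM in knockout. Pter lay between 106 and 118 CPM in wildtype and between 140 and 153 CPM in knockout. Taken singly, 3 markers separated with knockout higher and 1 with knockout lower, against 8.29% and 8.34% of all genes. The sum without Calb1 and Pter was not taken, so the other markers are not said to separate the genotypes. Meningeal markers summed to between 267 and 310 CPM in wildtype and between 372 and 463 CPM in knockout, with 8 of 8 at a positive fold, such as Igf2 (log2 fold 0.77, adjusted p = 0.227 with edgeR and 0.0277 with DESeq2), and 3 called higher by DESeq2. No marker of these 2 lists averaged under 1 CPM. In other lists single markers differed while the sums overlapped: DESeq2 called 2 of 10 astrocyte markers higher and 1 lower, and 7 of 8 oligodendrocyte markers had a negative fold (median -0.16). Their part in any subunit's difference was not tested, and fewer cells of a type cannot be told apart from less RNA per cell in whole tissue.

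Levels of different subunit genes were compared per kilobase of the longest coding transcript. In wildtype, Gria1 stood highest at 260 ± 9.8 CPM per kilobase (SD, n = 3), followed by Gria2 at 130 ± 0.86, Grin1 at 103 ± 2.4 and Gria3 at 65.2 ± 1.6 CPM per kilobase. The other 6 genes were far lower. Gria4 was at 13.4 ± 0.61 and Grin2c at 11.9 ± 0.92 CPM per kilobase, and the lowest Gria4 library (12.8) nearly met the highest Grin2c library (12.7). Grin2b (8.57 ± 1.2) and Grin3a (8.20 ± 0.13 CPM per kilobase) overlapped between mice. Grin2a at 5.31 ± 0.35 and Grin2d at 3.07 ± 0.21 CPM per kilobase closed the order. The order was the same in knockout except that Grin3a (8.31 ± 0.95) stood above Grin2b (7.20 ± 0.65 CPM per kilobase). It depends on the length used. With the mean length of the coding transcripts, Grin2b, whose longest transcript has 24060 bases, stood at 34.4 ± 4.9 CPM per kilobase and followed Grin1, Gria3 (120) passed Grin1 (109), and Grin2a (9.70) passed Grin3a (8.23).

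**Figure D1:**
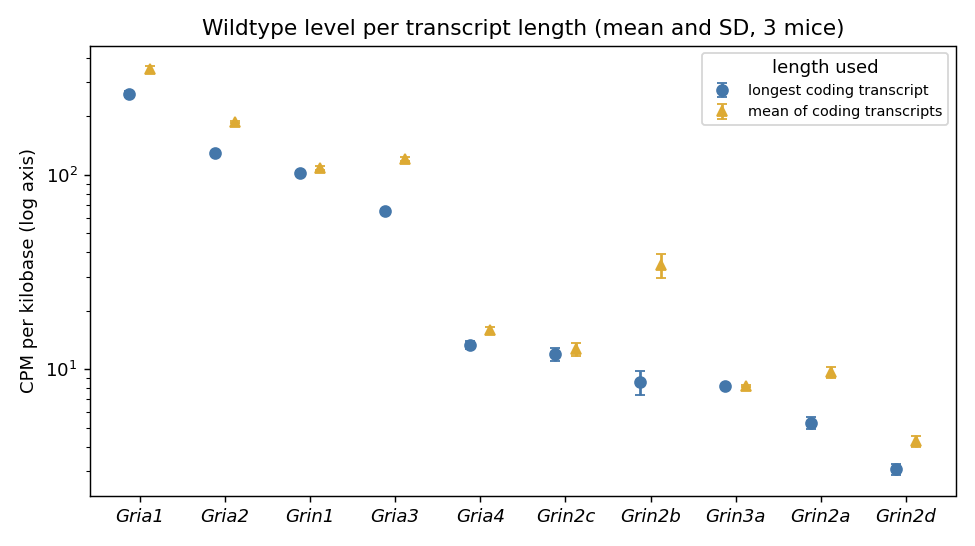
Level of each subunit gene in wildtype hippocampus in CPM per kilobase on a log axis, as mean and SD of 3 mice, with 2 ways of taking the transcript length. Gria1, Gria2, Grin1 and Gria3 lie above the other 6 genes with either length, and Grin2b moves the most, from 8.57 to 34.4.

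No subunit gene passed the main test. With edgeR's quasi-likelihood test and Benjamini-Hochberg adjustment over 16432 genes, 0 of the 10 had an adjusted p under 0.05, as did 0% of all genes tested. All 4 AMPA receptor genes had a small positive log2 fold of knockout over wildtype, from 0.03 to 0.09, and 5 of 6 NMDA receptor genes a negative one, from -0.08 to -0.29. The median over the 10 was -0.03 and over all genes 3.9e-05, and a difference between the receptor types was not tested. With offsets for transcript length and GC content, the medians were 0.04 for AMPA and 0.02 for NMDA receptor genes, 3 of which were then positive. Over all genes the median was then 0.01. At an unadjusted p under 0.05, Grin2a and Grin2b were lower in knockout, as were 5.58% of all genes, and none was higher, against 5.05% of all genes. DESeq2 called Grin2a lower, and 0.72% of the genes it adjusted lower. limma-voom called none.

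**Figure D2:**
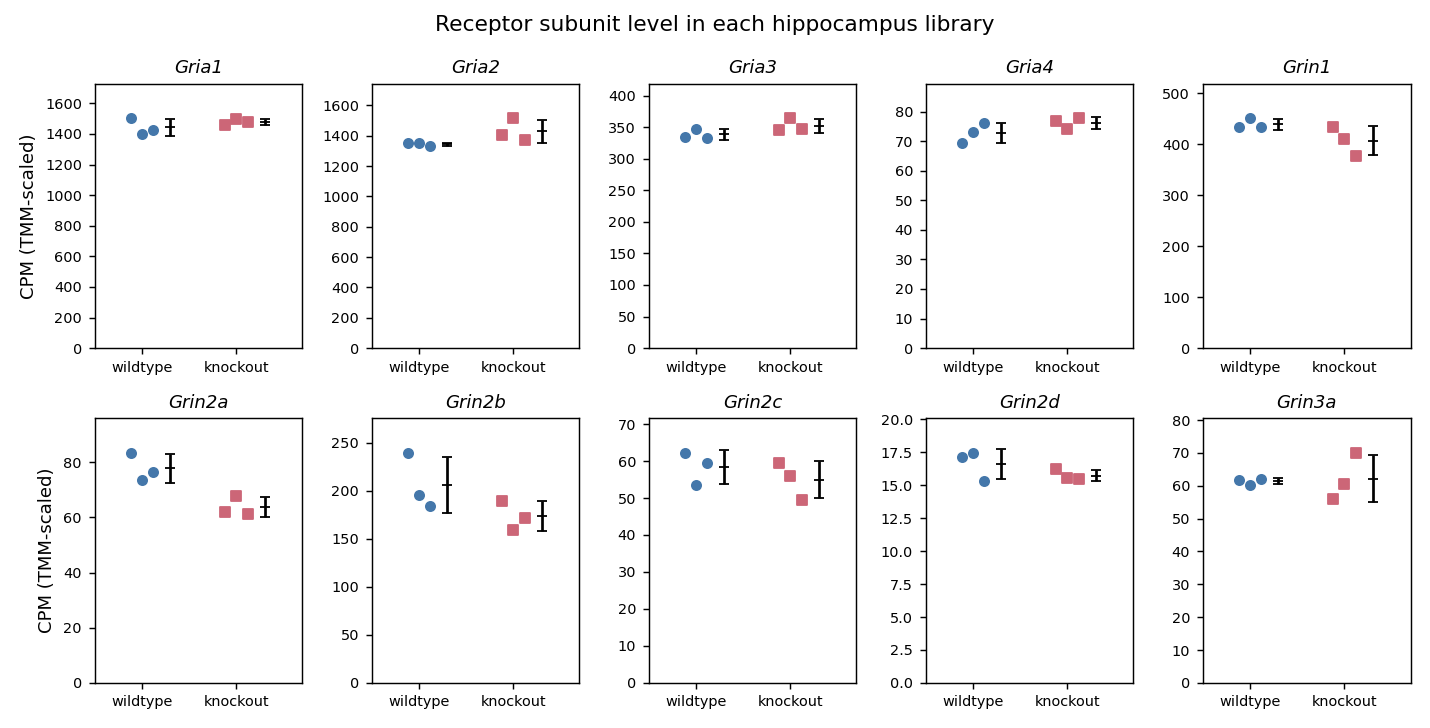
Level of each subunit gene in CPM with TMM-scaled library sizes, 1 point per mouse in the order of replicate number, with mean and SD beside the points and each axis starting at 0. Grin2a is the gene whose knockout libraries all lie under the wildtype ones and Gria2 the gene whose knockout libraries all lie above them.

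Grin2a encodes GluN2A, the subunit that gives NMDA receptors of the mature forebrain their fast decay. It measured 83.4, 73.4 and 76.4 CPM in wildtype replicates 1, 2 and 3 and 62.1, 67.9 and 61.2 CPM in knockout replicates 1, 2 and 3. The genotypes did not overlap, as in 8.34% of all genes in this direction. Wildtype mice averaged 77.8 ± 5.1 CPM and knockout mice 63.7 ± 3.6 CPM (SD, n = 3). The log2 fold was -0.29 (SE 0.06), which is 18.2% lower, with an unadjusted p of 0.00126 in the fit across all genes and an adjusted p of 0.250 with edgeR. DESeq2 gave an adjusted p of 0.0102 for the same fold. That call was lost without wildtype replicate 1 (DESeq2 adjusted p = 0.110), without knockout replicate 1 (0.0761), without knockout replicate 3 (0.138) and with offsets for base composition (0.0534). The fold itself lay between -0.24 and -0.34 in every alternative run, and its adjusted p between 0.00702 and 0.591.

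Grin2b encodes GluN2B, which binds CaMKII and prevails early in development. It measured 239, 195 and 184 CPM in wildtype replicates 1, 2 and 3 and 190, 159 and 172 CPM in knockout replicates 1, 2 and 3. Knockout replicate 1 lay above wildtype replicate 3, so the genotypes overlapped. The log2 fold was -0.25 (SE 0.10) and did not pass with edgeR (unadjusted p = 0.0328 and adjusted p = 0.429 in the fit across all genes) or DESeq2 (adjusted p = 0.191). Without wildtype replicate 1, the highest library, the log2 fold was -0.13, and without knockout replicate 2, the lowest, it was -0.19. The unadjusted p exceeded 0.05 in both fits, and also without knockout replicate 3, where the log2 fold was -0.24. Grin2b shares 143 exonic bases with the antisense gene Gm14329 and 49 with Gm26653. Without a stated strand setting, reads there could not be assigned to either gene.

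Grin1, the obligatory GluN1 subunit, measured 433, 451 and 433 CPM in wildtype and 434, 411 and 376 CPM in knockout replicates 1, 2 and 3. Knockout replicate 1 lay within the wildtype range and the other two knockout libraries below it. At -0.11 on the log2 scale (SE 0.05), the difference did not pass (adjusted p = 0.517 with edgeR), and it was -0.06 without knockout replicate 3. Its antisense neighbour Grin1os, which covers 1307 of its exonic bases, stood at 21.0 ± 0.87 CPM in wildtype mice and 21.8 ± 2.5 CPM in knockout mice (SD, n = 3). Reads in these shared bases could not be assigned to either gene, as no strand setting is stated.

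The remaining NMDA receptor genes differed by less than the spread between mice. Grin2c, the GluN2C gene, best known from cerebellar granule cells, measured 62.2, 53.4 and 59.6 CPM in wildtype and 59.4, 55.9 and 49.5 CPM in knockout (log2 fold -0.09, SE 0.08). Grin2d, whose product GluN2D is found in interneurons, measured 17.1, 17.5 and 15.3 CPM in wildtype and 16.2, 15.6 and 15.5 CPM in knockout (log2 fold -0.08, SE 0.07). In both genes the genotypes overlapped. Leaving out 1 library moved Grin2c from -0.15 (without wildtype replicate 2 or knockout replicate 1) to -0.02 (without knockout replicate 3), and Grin2d from -0.14 (without wildtype replicate 3) to -0.05 (without wildtype replicate 2). The 12 interneuron markers summed to between 945 and 966 CPM in wildtype and between 957 and 985 CPM in knockout, and 0 of them had an unadjusted p under 0.05 with edgeR. Grin3a, whose product GluN3A lowers calcium entry through NMDA receptors, measured 61.9, 60.3 and 62.0 CPM in wildtype and 56.1, 60.6 and 70.0 CPM in knockout. Its knockout libraries lay on either side of the wildtype ones, its log2 fold was 0.02 (SE 0.08), and the direction turned to -0.08 without knockout replicate 3. Grin2d shares 643 exonic bases with the antisense gene Gm45441, where reads could likewise not be assigned to either gene.

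Gria2 had the highest log2 fold and the smallest p of the AMPA receptor genes, and its genotypes did not overlap. It measured 1349, 1349 and 1334 CPM in wildtype and 1403, 1516 and 1372 CPM in knockout replicates 1, 2 and 3, and 8.29% of all genes separated in this direction. Knockout replicate 2 was the highest. The log2 fold was 0.09 (SE 0.04), or 6.41% higher, and did not pass (adjusted p = 0.502 with edgeR and 0.547 with DESeq2). Without knockout replicate 2 it was 0.05.

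Gria1, the main partner of GluA2 and the subunit added to synapses during potentiation, measured 1503, 1399 and 1426 CPM in wildtype and 1461, 1497 and 1476 CPM in knockout. Wildtype replicate 1 was higher than every knockout library, and the log2 fold was 0.03 (SE 0.04). Gria3 ranged from 333 to 348 CPM in wildtype and from 345 to 364 CPM in knockout, with a log2 fold of 0.06 (SE 0.04). Gria4, whose product is enriched in fast-spiking interneurons, ranged from 69.4 to 76.0 CPM in wildtype and from 74.0 to 77.8 CPM in knockout, with a log2 fold of 0.07 (SE 0.05). Without wildtype replicate 2 the log2 fold of Gria1 was 0.01 and without wildtype replicate 1 it was 0.07, while Gria3 went to 0.03 without knockout replicate 2 and Gria4 to 0.03 without wildtype replicate 1. In all 3 genes the genotypes overlapped, and edgeR's adjusted p was between 0.643 and 0.771.

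The folds were also fitted with allowance for base composition. The transcripts had a median GC content of 43.7% for AMPA and 54.3% for NMDA receptor genes, from 36.8% in Gria2 to 65.0% in Grin2d, against 50.2% over the tested genes. With offsets that smooth each library on GC content and transcript length, Grin1 went to -0.01, Grin2b to -0.17, Gria2 to 0.05 and Gria3 to 0.02 on the log2 scale, and Grin2c and Grin2d turned to 0.04 and 0.09. Grin2a, at 44.8% GC, kept -0.25 (unadjusted p = 0.00314 and adjusted p = 0.393 with edgeR in the fit across all genes). The median over the 10 genes was then 0.04, against 0.01 over all genes tested.

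**Figure D3:**
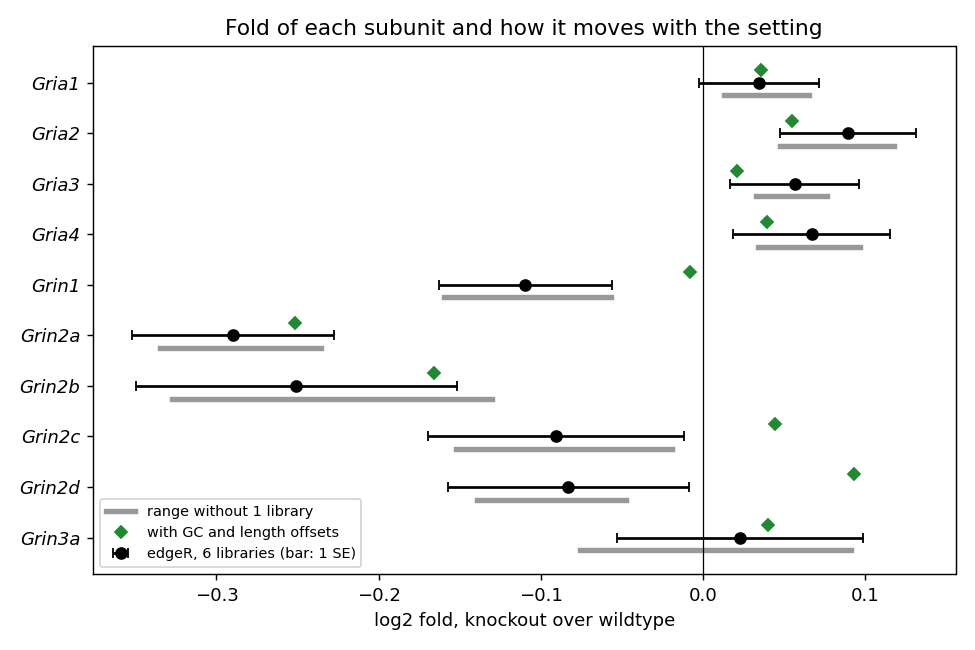
Log2 fold of knockout over wildtype for each subunit gene, with black points for edgeR on 6 libraries (bar of 1 SE), grey bars for the range when 1 library is left out and green diamonds for the fit with GC and length offsets. Grin2a stays between -0.24 and -0.33 in these fits, whereas Grin1 moves to -0.01 and Grin2c and Grin2d turn positive with the offsets.

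Ratios of subunits within a library do not depend on library scaling, and 8 were compared with an exact two-sided permutation test, whose smallest p with 3 mice against 3 is 0.1. Gria2 over Grin1 was higher in every knockout library. Its log2 ratio per kilobase was 0.36, 0.30 and 0.34 in wildtype and 0.41, 0.61 and 0.59 in knockout, a difference of 0.20 (SE 0.06, n = 3, exact permutation p = 0.1, adjusted p = 0.8 over the 8 ratios). With the offsets for GC content and length that difference was 0.06. Grin2a over Grin2b, a measure used for receptor maturation, had log2 values of -0.80, -0.69 and -0.55 in wildtype and -0.89, -0.51 and -0.77 in knockout. The difference of -0.04 (SE 0.14, exact permutation p = 0.8, n = 3) was within the spread between mice. The genotypes overlapped in all ratios but Gria2 over Grin1, and no ratio could pass.

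As shares of AMPA receptor messenger RNA per kilobase, Gria1 made up 55.5% ± 1.1 in wildtype and 54.8% ± 0.76 in knockout (SD, n = 3), and Gria2 27.7% ± 0.46 and 28.4% ± 0.83. Gria3 was at 13.9% in either genotype, and Gria4 at 2.86% in wildtype and 2.88% in knockout. Among the 4 GluN2 genes, Grin2a made up 18.1%, 18.4% and 18.7% in wildtype replicates and 15.6%, 18.2% and 17.2% in knockout replicates 1, 2 and 3, and Grin2b 29.6% ± 2.1 and 28.1% ± 1.9. Grin2c, at 41.3% ± 2.0 in wildtype and 43.7% ± 1.7 in knockout, differed the most in mean share among these 8 genes, and its libraries overlapped. With the mean transcript length Grin2b was instead at 56.2% ± 2.4 in wildtype and 54.7% ± 2.5 in knockout. Grin2c was then at 20.9% ± 1.6 in wildtype and 22.6% ± 1.4 in knockout.

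**Figure D4:**
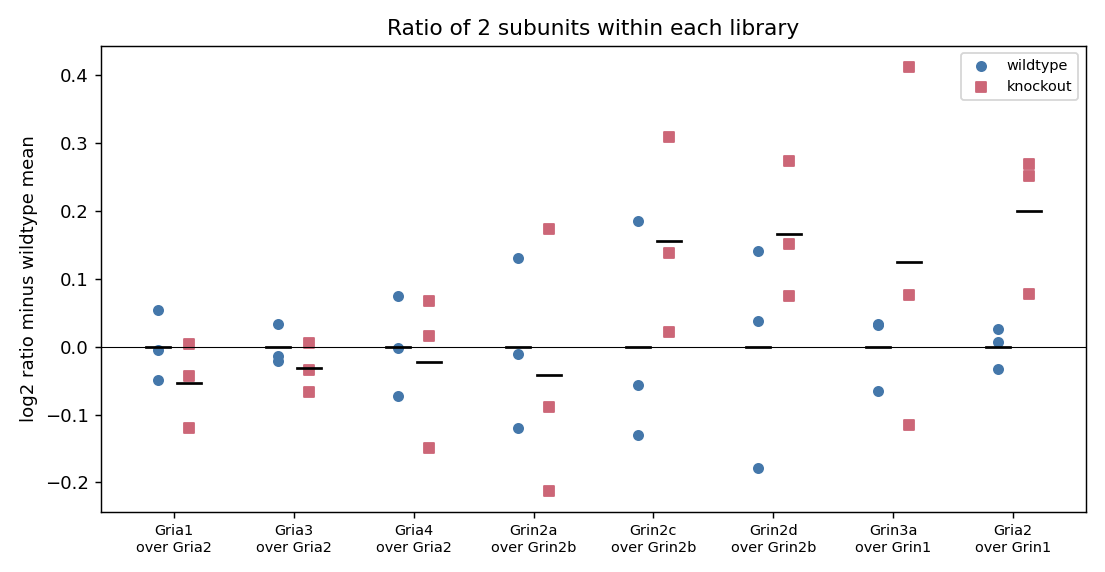
Log2 ratio of 2 subunit genes within each library, set to a wildtype mean of 0, with blue circles for wildtype, red squares for knockout and black lines for the mean of 3 mice. Gria2 over Grin1 is the ratio in which every knockout library lies above every wildtype library.

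The 80 other genes of glutamate synapses, in 5 lists, gave 0 calls with edgeR in either direction. At an unadjusted p under 0.05 there were 10 lower and 2 higher with edgeR, against 5.58% and 5.05% of all genes, and the median log2 fold was -0.03. DESeq2 called Dlgap3, Shank1 and Grik5 lower and 0 higher, against 93 lower (0.72%) and 70 higher among the 12919 genes it adjusted. Of the 80, it called 0 lower without wildtype replicate 1, knockout replicate 2 or knockout replicate 3, and with GC and length offsets. Their median GC content was 52.1%. With these offsets in edgeR, 1 was lower and 2 were higher at an unadjusted p under 0.05, against 2.92% and 4.44% of all genes in that fit.

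Of 25 NMDA receptor scaffold and signalling genes, 19 had a negative fold. At an unadjusted p under 0.05 in edgeR, 6 were lower and 0 higher, against 5.58% and 5.05% of all genes. With the offsets for GC content and length, 1 was lower and 0 were higher, against 2.92% and 4.44% of all genes. The median log2 fold was -0.06 (-0.0010 with the offsets), and the median GC content 55.1%. Dlgap3, which links PSD-95 to Shank proteins, averaged 226 ± 9.1 CPM in wildtype mice and 197 ± 3.5 CPM in knockout mice (SD, n = 3). Its log2 fold was -0.20 (SE 0.04; adjusted p = 0.250 with edgeR and 0.0151 with DESeq2). Shank1, a scaffold of the postsynaptic density, had a log2 fold of -0.21 (SE 0.05, adjusted p = 0.295 with edgeR and 0.0381 with DESeq2). Ephb2, a receptor tyrosine kinase that binds NMDA receptors, had one of -0.18 (SE 0.05).

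AMPA receptor auxiliary and trafficking genes gave 3 lower and 1 higher of 24 at an unadjusted p under 0.05, against 5.58% and 5.05% of all genes. There were 18 negative folds and a median of -0.06. With the offsets 0 were lower and 1 was higher, and the median was -0.0087. Nptx2, a secreted pentraxin that clusters AMPA receptors, averaged 28.1 ± 0.84 CPM in wildtype mice and 33.1 ± 2.3 CPM in knockout mice (SD, n = 3). Its log2 fold was 0.24 (SE 0.06; adjusted p = 0.317 with edgeR). Cacng8, a transmembrane AMPA receptor regulatory protein, had a log2 fold of -0.18 (SE 0.06), and Cpt1c one of -0.14 (SE 0.05). Neither passed.

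Kainate and delta receptor genes are the nearest relatives of the subunits, and their list also holds the auxiliary gene Neto2. Of the 8 genes listed, 1 was lower and 0 were higher at an unadjusted p under 0.05, against 5.58% and 5.05% of all genes. Grik5, a high-affinity kainate receptor subunit, averaged 253 ± 9.2 CPM in wildtype mice and 219 ± 13 CPM in knockout mice (SD, n = 3). Its log2 fold was -0.21 (SE 0.05; adjusted p = 0.292 with edgeR and 0.0404 with DESeq2). Neto2 and Grik1 had log2 folds of 0.15 (SE 0.09) and 0.11 (SE 0.09). Among 14 genes of glutamate release and clearance 1 was higher and 0 lower, with log2 folds of 0.16 (SE 0.06) for Glud1, 0.38 (SE 0.22) for Slc17a6 and -0.07 (SE 0.05) for Slc1a4. Among 9 genes of RNA editing and splicing, 0 had an unadjusted p under 0.05, and Adarb2, Khdrbs3 and Nova1 had log2 folds of 0.09, 0.11 and 0.08.

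**Figure D5:**
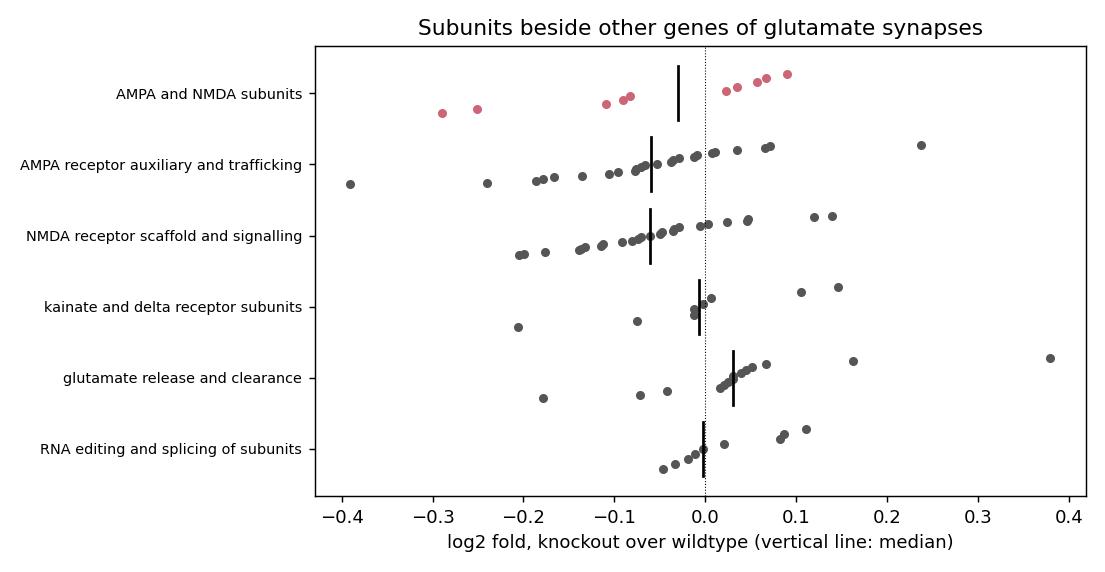
Log2 fold of knockout over wildtype for the 10 subunit genes and for 5 lists of other glutamate synapse genes, 1 point per gene, with a vertical line at each median. The medians of the AMPA auxiliary and NMDA scaffold lists lie at -0.06 (-0.0087 and -0.0010 with GC and length offsets), and no point passed edgeR's adjusted threshold.

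Over the 6 libraries, the 3 pairs of subunit genes with the largest correlation of either sign were Gria2 with Gria3 (Pearson r = 0.89), Gria4 with Grin2a (r = -0.82) and Grin1 with Grin3a (r = -0.78). Grin2a and Grin2b, the genes of smallest p, had r = 0.69. These are descriptions of 6 points that differ in library depth and genotype, and genotype was not taken out before correlating. Among 9578 named genes of at least 10 CPM, Pik3cd, Map3k10 and Evi5l were most like Grin2a (r of 0.995, 0.991 and 0.989) and Mtx1, Tesc and Bcl7b most like Grin2b (r of 0.999, 0.999 and 0.992). They are the highest of many correlations over the same 6 libraries.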

How the data were processed

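Per the labels' protocols, total hippocampal RNA was purified on RNeasy columns with DNase. The values the authors deposited are raw counts, in 1 file for each mouse. The submitters' processing notes list FastQC 0.10.1, STAR 2.3.0e, SAMtools, HTSeq, DESeq2 and build mm9; neither annotation nor strand setting is given in the sources used here. The 5 rows that name no gene (38.0% to 40.3% of each file) were left out.

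Names, transcript lengths, GC content and 3' UTRs came from GENCODE M21 (GRCm38), which matched 32897 of 37620 identifiers. Coordinates of sequences are on GRCm38. The sequence of 1 seed match is not reported here. The main test was edgeR 4.0.16 (R 4.3.3), quasi-likelihood, genotype alone, filterByExpr, TMM, Benjamini-Hochberg over all 16432 genes tested, threshold 0.05. Alternatives were RLE size factors, 2 other filters, DESeq2 1.42.0, limma-voom (limma 3.58.1), a replicate block, GC and length offsets, depth as covariate and leaving out each library. DESeq2 with 1 library left out or with offsets was added after seeing the data. Correlations used log2(CPM + 0.5). The test was tried on simulated counts.

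The members and lists were chosen with earlier results of these data known. Genes named were the 10 subunits, Grin3b, Mir17hg and the 3 of smallest p in each synapse list. Up to 2 of each marker list whose sums separate the genotypes were named as well. So were the 3 genes most correlated with each of the 2 subunits of smallest p. Grin1os, other antisense genes and Ttr were named after their values were seen. Cacng5, Grik4, Slc17a6, Slc1a2 and Slc1a3 stand in a synapse and a marker list. Each mouse is 1 replicate.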

Additional observations from a re-analysis of the deposited data

How the results depend on the processing

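Calls of subunit and synapse genes rested on the tool. DESeq2 called 1 subunit gene lower and 3 other synapse genes lower, against 0.72% of all genes it adjusted. With GC and length offsets DESeq2 called 0 subunit genes, 0 other synapse genes lower and 1 higher. Every other setting with 6 libraries called 0 in either set. With no filter beyond 1 read, edgeR called 62 of 25462 genes and gave Grin2a an adjusted p of 0.0571. Leaving out 1 library gave 0 calls in either set with edgeR, and between 0 and 17 among all genes. With DESeq2 it gave 0 to 1 subunit genes lower, and 0, 2 or 3 lower and 0 to 1 higher among the other synapse genes. The cause was not tested. Directions turned for genes that did not pass. With the offsets, Grin2c had a log2 fold of 0.0446 in edgeR and 0.0449 in DESeq2, and Grin2d of 0.0930 and 0.0921. Without 1 library, Grin3a ran from -0.0760 (-0.0749 with DESeq2) to 0.0914 (0.0940 with DESeq2). Ratio differences without 1 library ran from -0.0663 to 0.0413 for Gria4 over Gria2, from -0.150 to 0.0428 for Grin2a over Grin2b and from -0.0195 to 0.244 for Grin3a over Grin1. With sites of 6 bases, 9 subunit genes held a seed match, and the share of all genes that did was not counted. The replicate numbers pair nothing, since the mice came from different litters. Across genes, the correlation of their deviations was 0.08, 0.07 and -0.06. With a replicate block, edgeR called 0 genes, with Grin2a at -0.29 and Grin2b at -0.25 (adjusted p of 0.376 each).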
